A study of Mus musculus with 15 samples.

Results

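The regions described here are stretches of chromatin that were called accessible in haematopoietic stem cells (HSC) lacking Mtor, and in neither the control nor the knock-in cells of the same series. Accessibility was measured by ATAC-seq, in which a transposase cuts open DNA and the cut sites pile up into peaks. The peak lists of the 3 libraries, 1 per genotype, were merged wherever peaks overlapped or touched, and a region was kept when it held a KO peak and neither a WT nor a KI peak. Of 32764 merged regions, 2619 met this rule (7.99%; Wilson 95% interval 7.70 to 8.29), which was 13.9% (13.4 to 14.4) of the 18833 regions with a KO peak. These intervals, like all intervals below, cover counting error over regions, or over promoter windows where windows are counted, and nothing else. The members were thus chosen by the presence and absence of peaks in these same libraries, so their number is a description and carries no test.

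The study sorted HSC from adult mice treated with poly(I:C), an interferon inducer that switches on the Mx1 promoter. The WT control carried Mx1-Cre-/-;mTORflox/flox, the KO Mx1-Cre+/-;mTORflox/flox and the KI Mx1-Cre+/-;mTORflox/knockin. All 3 groups thus carried at least 1 floxed Mtor allele and received poly(I:C), and the Cre recombinase was carried by KO and KI but not by WT. Against WT, an effect of Cre and one of the Mtor alleles cannot be told apart, whereas KO and KI share Cre. Mx1-Cre also acts in interferon-responsive cells other than HSC, and the labels do not say how many animals gave cells to a library. The labels mark WT and KO as re-analysed and KI not, so for KI any batch difference and the genotype cannot be told apart. The WT list held 17316 peaks, the KO list 19189 and the KI list 28391, at a read depth that is unknown. With 1 library per genotype nothing could be tested between genotypes. As a check of the cell label, 4 of 11 HSC markers (Kit, Mecom, Hlf and Meis1) had a KO peak at a gene end, as had 3 of 8 erythroid, 2 of 5 megakaryocyte, 2 of 3 dendritic (Flt3 and H2-Aa), 1 of 6 T and NK and 1 of 5 endothelial and stromal markers. None of 8 granulocyte and monocyte, 5 B cell and 3 mast cell markers had one. The HSC markers had a gene-end peak in 7 cases in WT and 6 in KI, so gene-end peaks did not set the KO library apart as HSC from the other cell types. Procr, Slamf1, Cd34, Gata2, Tek and Ly6a were among those without one.

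As background, mTOR is the kinase of the complexes mTORC1 and mTORC2, which couple nutrients and growth factors to protein synthesis, metabolism and survival. In HSC, restraint of this pathway is known to be needed for quiescence, and its loss impairs blood formation. Accessible DNA in HSC marks promoters, most of which are CpG-rich and open in many cell types, and enhancers, which lie in introns or between genes and differ more between cell types.

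Promoter sequences show what kind of DNA lies at the gene starts that members overlap. Of the 32851 RefSeq promoter windows (GRCm38.p6, the assembly behind mm10; 250 bases before to 50 after an annotated start), 237 windows of 215 genes overlapped a KO-alone region and no region of another class, and 62 of them lay wholly inside it. The 6 windows below are shown because their KO-alone regions scored well above the median member and their genes act in chromatin, DNA repair, replication or cell death, except for Ddx3y, which is the single such start on chromosome Y. They were chosen after their values were seen. Capitals mark matches to any of 11 motifs searched on both strands.
H3c3: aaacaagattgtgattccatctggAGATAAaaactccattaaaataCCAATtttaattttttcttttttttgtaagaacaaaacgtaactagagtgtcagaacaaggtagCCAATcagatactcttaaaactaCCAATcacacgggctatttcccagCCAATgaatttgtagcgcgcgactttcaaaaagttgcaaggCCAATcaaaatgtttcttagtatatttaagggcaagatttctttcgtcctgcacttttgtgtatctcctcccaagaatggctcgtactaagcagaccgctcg
Ddx3y: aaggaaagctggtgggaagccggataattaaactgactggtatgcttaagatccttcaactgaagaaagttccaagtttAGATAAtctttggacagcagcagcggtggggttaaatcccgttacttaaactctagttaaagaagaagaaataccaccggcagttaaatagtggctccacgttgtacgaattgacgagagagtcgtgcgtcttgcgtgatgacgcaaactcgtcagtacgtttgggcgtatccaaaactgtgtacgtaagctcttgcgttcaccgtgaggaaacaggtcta
Fancg: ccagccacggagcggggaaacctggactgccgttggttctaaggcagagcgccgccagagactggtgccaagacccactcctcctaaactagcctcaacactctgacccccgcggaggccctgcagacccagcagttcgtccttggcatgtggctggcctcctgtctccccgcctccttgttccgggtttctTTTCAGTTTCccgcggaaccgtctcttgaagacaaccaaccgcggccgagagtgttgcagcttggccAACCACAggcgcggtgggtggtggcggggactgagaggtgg
Fas: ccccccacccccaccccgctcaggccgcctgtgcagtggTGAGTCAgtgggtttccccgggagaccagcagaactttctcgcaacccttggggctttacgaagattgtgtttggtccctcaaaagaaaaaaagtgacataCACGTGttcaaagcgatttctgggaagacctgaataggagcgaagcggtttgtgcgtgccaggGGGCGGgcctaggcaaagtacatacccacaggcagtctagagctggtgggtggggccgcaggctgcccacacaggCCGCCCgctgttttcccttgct
Cbx7: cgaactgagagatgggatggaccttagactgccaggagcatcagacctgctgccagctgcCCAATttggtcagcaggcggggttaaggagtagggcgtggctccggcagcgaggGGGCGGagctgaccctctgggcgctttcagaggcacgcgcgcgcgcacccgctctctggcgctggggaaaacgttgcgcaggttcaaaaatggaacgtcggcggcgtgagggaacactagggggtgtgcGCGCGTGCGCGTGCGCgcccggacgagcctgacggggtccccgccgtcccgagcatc
Pola2: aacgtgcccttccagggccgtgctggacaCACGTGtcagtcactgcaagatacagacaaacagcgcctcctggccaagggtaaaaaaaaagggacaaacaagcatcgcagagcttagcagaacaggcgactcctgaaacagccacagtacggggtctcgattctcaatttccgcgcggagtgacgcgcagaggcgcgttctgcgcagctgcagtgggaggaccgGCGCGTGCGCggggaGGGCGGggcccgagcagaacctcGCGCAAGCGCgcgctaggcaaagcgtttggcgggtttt

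The H3c3 window (chr13:23745472-23745771, minus strand) belongs to a replication-dependent histone H3 gene and held 5 CCAAT matches, the letters of the NFY motif, with a GC content of 37.3%. The Ddx3y window (chrY:1286564-1286863, minus strand), of a Y-linked RNA helicase gene, held 1 GATA match (AGATAA). The KO-alone region covered 155 of the 300 bases of this window, and the GATA match lay outside it. The Fancg window (chr4:43010252-43010551, minus strand) belongs to a Fanconi anaemia gene for repair of DNA crosslinks and held 1 interferon response match and 1 RUNX match (TGTGGTT). The Fas window (chr19:34290409-34290708, plus strand), of a death receptor gene, held 1 AP-1 (TGANTCA), 1 E-box (CACGTG) and 2 SP/KLF matches (GGGCGG). The Cbx7 window (chr15:79932597-79932896, minus strand) is an alternative start inside the gene of a Polycomb subunit and held 2 overlapping NRF1 matches, with a GC content of 67.3%. The Pola2 window (chr19:5964157-5964456, minus strand), of a subunit of the DNA polymerase alpha and primase complex, also held 2 NRF1 matches. A match is a description of letters and not a bound site.

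Every KO-alone region consisted of a single KO peak, and most of these scored low in the KO list. The value of a member is the score deposited by the authors for its KO peak, of the form in which MACS writes 10 times the negative log10 of a p-value, with a lowest value of 50 in this list. Scores of members ran from 50 to 132.33 with a median of 60.43, against a median of 98.01 for the 16214 other regions with a KO peak. Of the members, 1263 (48.2%) scored under 60 and 37 (1.41%) scored 100 or more. The rule and the score are linked through the calling threshold, so these values describe the members and support nothing about them.

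The regions with a KO peak were put into 4 score classes, cut at the quartiles of all KO peak scores. Of the members, 1640 (62.6%) fell in class 1 (50 to 63.88), 850 (32.5%) in class 2 (to 87.24), 129 (4.93%) in class 3 (to 138.87) and 0 in class 4. Class 4 held 4796 regions, so that a count of 0 allowed a share of at most 0.08% by the Wilson interval. The share of regions found in KO alone was 35.8% (34.5 to 37.2) in score class 1, 18.1% (17.0 to 19.2) in class 2 and 2.71% (2.28 to 3.21) in class 3. Most members are thus low-scoring peaks of this library. For regions with a peak in WT alone, 69.9% of 1808 lay in the class below the lowest quartile of the WT scores, and for KI alone 51.9% of 9597 in that of the KI scores. These lists differ in length, so the shares stand side by side and are not compared.

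**Figure D1:**
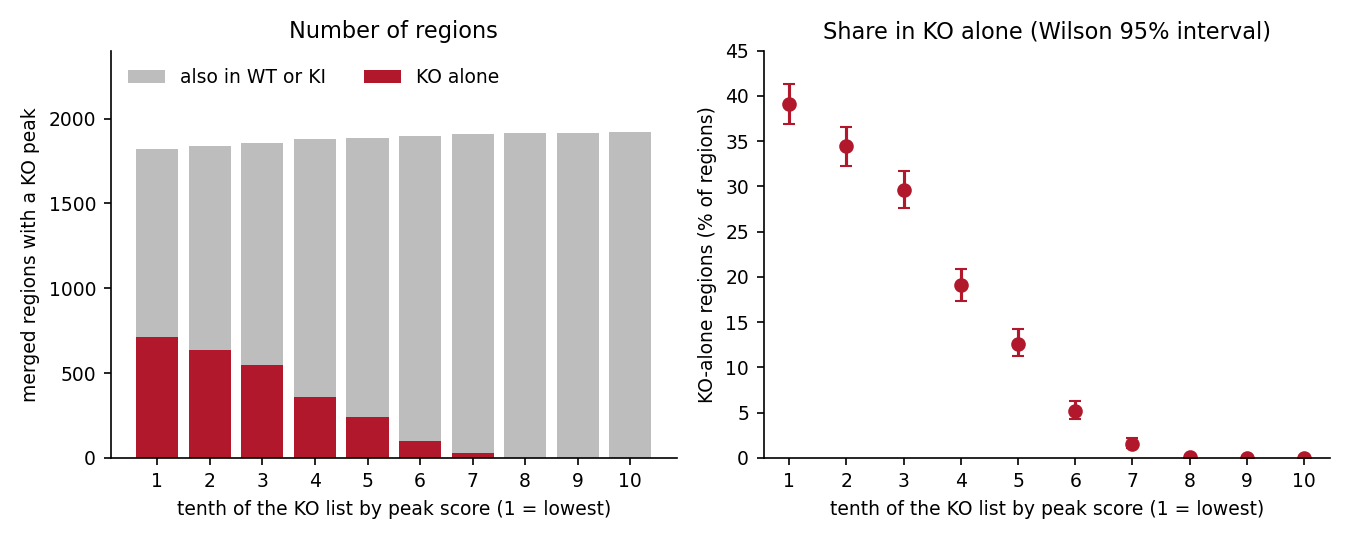
KO-alone regions by decile of the KO list (x axis, 1 = lowest scores). Left, the number of merged regions with a KO peak, with KO-alone regions in red and those also called in WT or KI in grey; right, the KO-alone share in percent with Wilson 95% intervals. The share is 39.1% in decile 1, 12.6% in decile 5 and 0.0522% in decile 8, and no region of deciles 9 and 10 was KO-alone.

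At the edge of the rule, the members closest to another list's peak were 3 bp from one near Prrg1 (KO score 50.7), 5 bp near Mri1 (75.13) and 6 bp near Ubr2 (57.78). The KO peaks that only just overlapped another list's peak shared 1, 4 and 6 bp with it, at KO scores of 55.71, 54.98 and 57.24. In all, 23 members lay within 50 bp of a WT or KI peak, and 30 of the 16569 KO peaks that overlapped one did so by 50 bp or less. Regions with a KO peak whose best WT or KI peak scored under 55, and which a slightly higher calling threshold in those lists would have made members, numbered 345.

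The KO peaks of members were narrow. Their median width was 343 bp, against 555 bp for the other KO peaks. Within score class 1 the medians were 338 and 375 bp, in class 2 they were 356 and 453 bp, and in class 3 430 and 577 bp. The widest members were 5029 bp inside Sfi1 on chromosome 11 (score 51.65) and 2060 bp near the start of chromosome 9 (58.29), where sequence occurs in repeated copies. Whether reads mapped uniquely there was not tested.

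KO-alone regions lay mostly away from gene ends. A gene end here means within 1 kb of either annotated end of a gene, since a strand was not at hand for every gene. A start inside a gene, farther than 1 kb from both ends, is thus not counted as a gene end. Of the members, 335 (12.8%, 11.6 to 14.1) lay at a gene end, 1147 (43.8%, 41.9 to 45.7) in a gene body and 1137 (43.4%, 41.5 to 45.3) between genes. Of the other regions with a KO peak 51.8% (51.0 to 52.6) lay at a gene end and 22.5% (21.9 to 23.1) between genes. Among the gene-end members, 215 lay at an annotated start, 45 at a 3' end alone and 75 at genes without a strand in the promoter table. The median distance to the nearest gene end was 18201 bp for members and 621.5 bp for the others.

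The difference in place was present within each score class of 1 to 3. In score class 1, 13.4% of members and 29.8% of the other regions lay at a gene end, a difference of -16.4 percentage points (Newcombe 95% interval -18.7 to -14.1). In class 2 the shares were 11.3% and 35.1% (-23.8 points, -26.2 to -21.0), and in class 3 they were 14.7% and 52.99% (-38.3 points, -43.6 to -31.0). The share at gene ends thus climbed with score among shared regions, and the 3 member shares had overlapping intervals. A region called in several lists is wider than a single peak and reaches a gene-end window more easily, and the part of this in the difference was not tested.

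**Figure D2:**
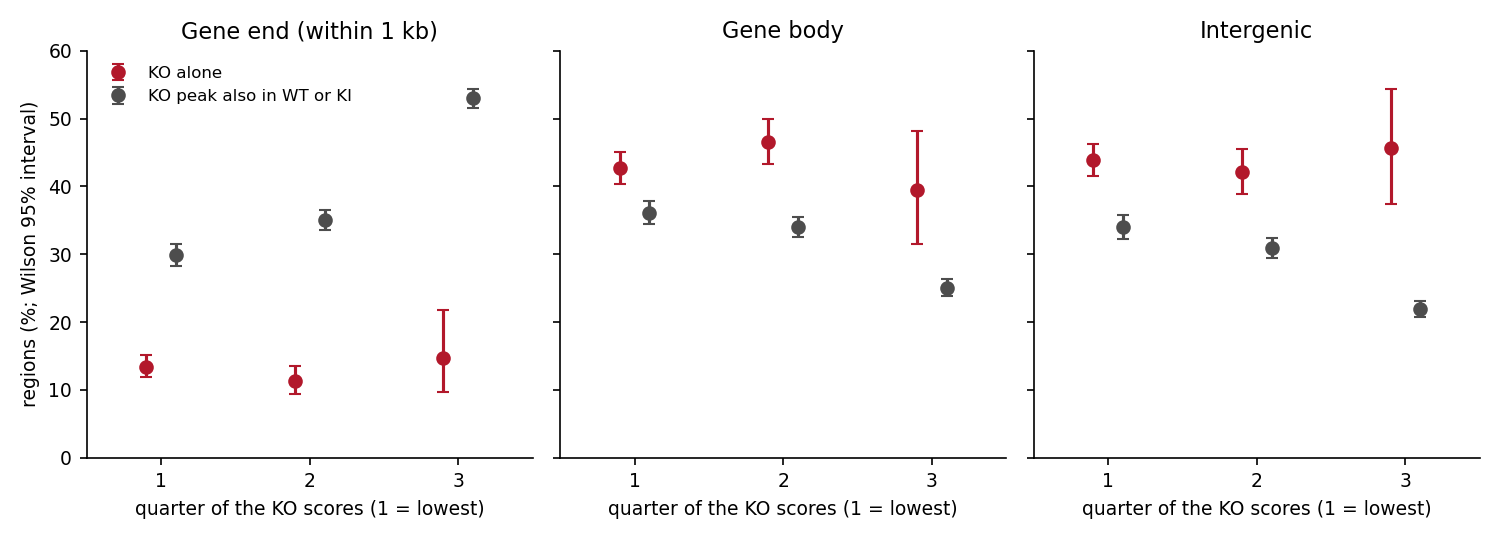
Share of regions (y axis, percent, with Wilson 95% intervals) at gene ends, in gene bodies and between genes, by class of the KO score (x axis, 1 = lowest). KO-alone regions (red) stay at 11.3% to 14.7% at gene ends, while regions also called in WT or KI (grey) go from 29.8% to 52.99%.

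The regions called in 1 other genotype alone lay at gene ends somewhat more often. Gene ends held 17.0% (15.3 to 18.8) of the WT-alone and 15.6% (14.9 to 16.3) of the KI-alone regions. KO-alone minus WT-alone came to -4.19 points (-6.37 to -2.06) and KO-alone minus KI-alone to -2.80 points (-4.23 to -1.29). The intergenic share differed from that of WT-alone by 0.604 points (-2.37 to 3.56) and from that of KI-alone by 2.59 points (0.459 to 4.73). By comparison, regions in all 3 lists lay at gene ends in 61.2% of cases.

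Most members stood apart from any peak of the other lists. The median gap to the nearest WT peak was 26384 bp, to the nearest KI peak 14554 bp and to the nearest other KO peak 25718 bp. A WT or KI peak lay within 1000 bp of 281 members (10.7%, 9.60 to 11.97), within 10000 bp of 1092 (41.7%) and nowhere within 100000 bp of 247. The KI list holds the most peaks, and the part of list length in the shorter gap to it was not tested.

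**Figure D3:**
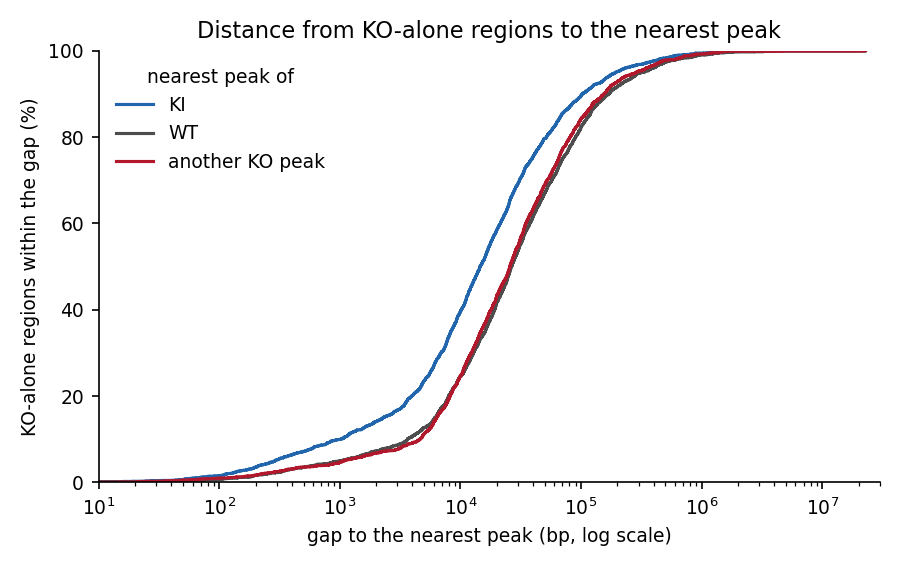
Cumulative share of KO-alone regions (y axis, percent) whose nearest peak lies within a given gap (x axis, bp, log scale), for KI peaks, WT peaks and other KO peaks. The curve for KI lies to the left with a median of 14554 bp, and those for WT (26384 bp) and other KO peaks (25718 bp) nearly coincide.

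The gene-end members with the highest scores lay at genes with varied roles. The first was chr13:23745107-23745791 (score 118.87), at the paired histone genes H3c3 and H2bc3, where a WT peak lay 390 bp and a KI peak 138 bp away. Histone genes have near-identical copies, so reads there may not map uniquely. Next came the start of Ddx3y (110.92) on chromosome Y, with the nearest WT peak 40548 bp away. Others high in the order were Plekhm2 (107.9), an adaptor for lysosome transport, Mfsd13a (106.62), a transporter-like gene, and Lancl3 (99.2). Lower in the order came Reep4 (98.17), Zhx2 (97.76), a transcriptional repressor, Gabre (93.01), a GABA receptor subunit, Fancg (92.68), Fas (92.51), Gng4 (92.21), 2810459M11Rik (90.7), Mos (90.1), a germ cell kinase, and Adamts2 (89.83), a procollagen protease. The WT and KI lists give no value at these positions. With a merge gap of 500 bp the regions at H3c3, Zhx2, Gabre and Gng4 joined a peak of another list and were no longer KO-alone, and with 1000 bp those at Mfsd13a and Adamts2 did so too.

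Some genes with a KO-alone region at a gene end also had a gene-end peak in another list. That peak could lie at either end of the gene, beside the member or far from it. In all, 365 of 21889 genes (1.67%) had a KO-alone region at a gene end, 227 of them at the annotated start. Of the 365, 95 genes (26.0%) also had a gene-end peak in both WT and KI, 52 in KI alone and 8 in WT alone. The remaining 210 genes (57.5%) lacked a gene-end peak in both other lists, and 140 of these had it at the start. H3c3 and Zhx2 belonged to the genes with peaks in both other lists. Ddx3y, Plekhm2, Lancl3, Fancg, Fas, 2810459M11Rik, Mos and Adamts2 belonged to those with none. A KI peak lay 604 bp from the Adamts2 member, outside the gene-end windows of that gene.

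Fas illustrates an isolated member. Its KO peak (chr19:34290286-34290856, score 92.51) covered the whole promoter window printed above, and the nearest WT and KI peaks lay 19633 and 19755 bp away. Fancg was less isolated, with a WT peak at 9272 bp and a KI peak at 4094 bp. The Cbx7 region (chr15:79932437-79933009, score 89.94) had a WT peak at 4278 bp and a KI peak at 4491 bp. Further genes with a gene-end peak in KO alone were picked after their values were seen, from the 210 such genes, and stand for no group. They included Sp100 (87.71), a nuclear body protein, Ifi204 (85.1), a DNA sensor family member, Cxcl5 (84.15), a neutrophil chemokine, Tank (76.47), a regulator of interferon signalling, and Nlrp1a (70.94), an inflammasome sensor. Others were Pola2 (79.84), Cd96 (78.52), a lymphocyte receptor, Mlx (72.52), a partner of the glucose-responsive MondoA and ChREBP factors, and Thpo (69.29), which encodes the cytokine thrombopoietin.

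**Figure D4:**
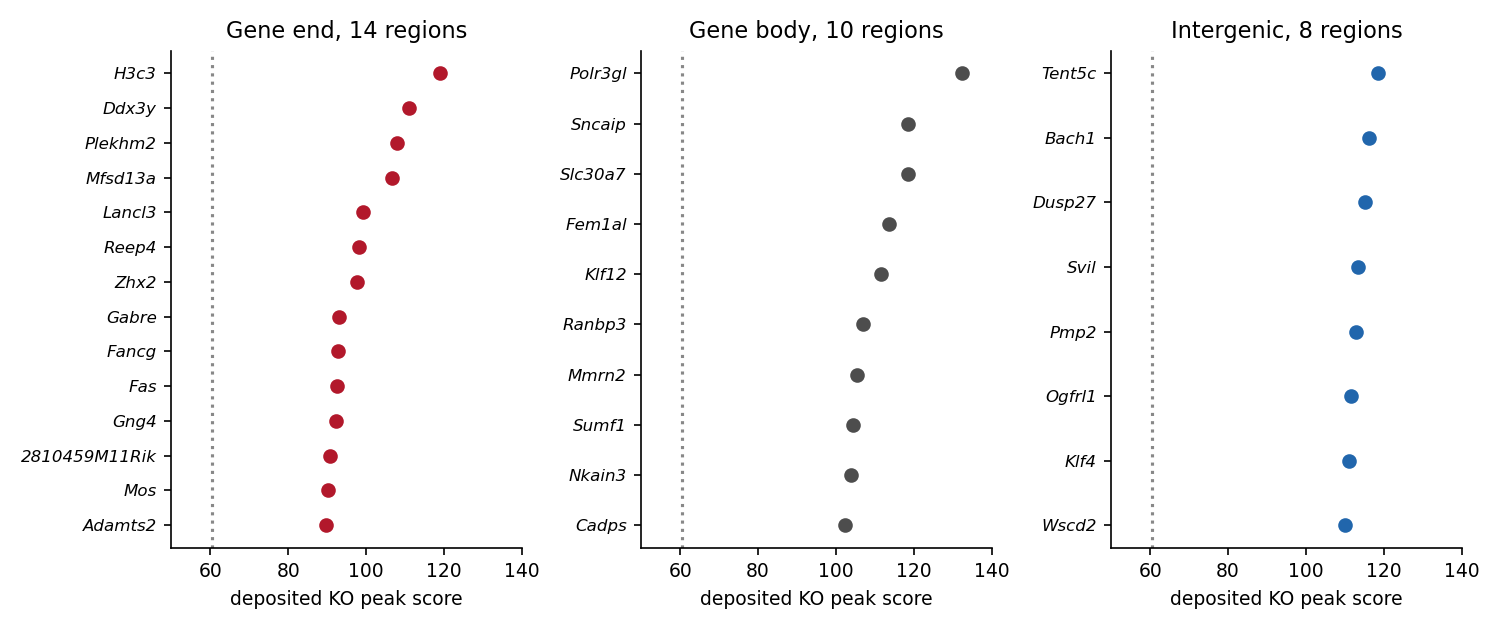
Deposited KO peak scores (x axis) of the highest-scoring KO-alone regions at gene ends (14 of the 15 highest), in gene bodies (10) and between genes (8), labelled with the nearest gene; the dotted line marks the median of all members, 60.43. The highest is the region inside Polr3gl at 132.33, and all points lie to the right of the median.

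Inside genes, the highest score of any member was that in Polr3gl (chr3:96579790-96580493, score 132.33), which encodes a subunit of RNA polymerase III. It lay 1918 bp from the nearest gene end. Those that followed were inside Sncaip (118.51), Slc30a7 (118.36), a zinc transporter of the Golgi, Eml6 near Fem1al (113.64), Klf12 (111.63), a transcriptional repressor, Ranbp3 (106.97), a nuclear export cofactor, Mmrn2 (105.26), an endothelial matrix protein, Sumf1 (104.47), the activator of sulfatases, Nkain3 (103.89) and Cadps (102.24). Between genes, the highest lay nearest to Tent5c (118.59, 37694 bp away), a poly(A) polymerase, Bach1 (116.15, 13347 bp), a haem-sensing repressor, Dusp27 (115.09), Svil (113.39), Pmp2 (112.91), Ogfrl1 (111.52), Klf4 (111.07, 38035 bp), a transcription factor, and Wscd2 (110.01). The nearest gene is a matter of position and does not say which gene a region acts on. At the other end of the scale the lowest members were those nearest to Zfp640 and Tspan5 (both 50.01) and Zfp217 (50).

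Members were spread thinly over genes. A KO-alone region lay in the body or within 10 kb of 1995 genes (9.11%), of which 181 had 2 or more and 5 had 4 or more. Those 5 were Arhgef3, a GTPase exchange factor, and Cmip, with 5 each, and Gse1, Igf1r, the IGF1 receptor upstream of PI3K and mTOR, and Ncoa2, a nuclear receptor coactivator, with 4 each. Ankrd44, Bmp7 and Clec16a had 3 each, as did further genes. These genes are long: Igf1r spans 281412 bp and had 9 regions with a KO peak, and Gse1 spans 352883 bp and had 14. The median span was 44107 bp for genes with a member nearby and 17169 bp for all genes.

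Gene lists for blood cells and for mTOR-related functions held few members at gene ends, 9 of 564 list genes (1.60%) against 1.67% of all genes. Near the gene (body or 10 kb) the counts were 62 of 564 (10.99%) against 9.11%. A share near the background says nothing particular about the list. The targeted gene Mtor (chr4:148448582-148557685) had 0 KO-alone regions near it, and the closest member lay 278534 bp away. In the mTOR pathway list 0 of 47 genes had a member at a gene end and 4 had one nearby (8.51%). These were inside Rptor (63.86), the mTORC1 scaffold, and Pik3r1 (53.31), a PI3K regulatory subunit, and outside Rictor (67.47, 2322 bp from the gene), the mTORC2 scaffold, and Lamtor5 (54.52), part of the lysosomal Ragulator. The Pik3r1 region covered 142 of the 300 bases of a promoter window at a start inside the gene.

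Among stem cell regulators and receptors 0 of 32 genes had a gene-end member and 5 had a member in the body (15.6%). Of all genes, 9.11% had a member in the body or within 10 kb. The one in Mecom (75.32), a transcription factor of long-term HSC, lay 218294 bp from the nearest WT peak and 338338 bp from the nearest KI peak. This member lay 63986 bp from the nearest end of the gene. Others were in Fgd5 (70.8), an HSC marker gene, and Fli1 (68.88), an ETS factor, where a KI peak lay 287 bp away. The rest were in Etv6 (59.19 and 58.94), also of the ETS family, and Prdm16 (56.86), a self-renewal factor. Mecom and Etv6 had a gene-end peak in both WT and KI, Prdm16 in KI only, and Fgd5 and Fli1 in neither. The erythroid list had 1 of 24 at a gene end (4.17%, against 1.67% of all genes), Epb42 (50.32), the red cell membrane protein 4.2. Its start window held 1 GATA match, and 11.2% of all promoter windows held these letters. The erythroid list also had members inside Fech (100.11), the last enzyme of haem synthesis, Slc25a37 (87.29), the mitochondrial iron importer, and Ank1 (54.9 and 52.24), erythroid ankyrin. The megakaryocyte list had 1 of 20 (5.0%), Rab27b (57.25), a GTPase of platelet granule release. The granulocyte and monocyte list and the lymphoid list had 0 of 27 and 0 of 30. Regions near Spi1 (61.51), Cx3cr1 (66.23), Dntt (79.66) and the B cell factor Ebf1 (70.5, 62.71 and 53.51) lay outside the gene-end windows. The list of mast, dendritic, endothelial and stromal genes had 2 of 22 (9.09%). These were Col1a2 (62.22), a collagen chain, and Clec9a (62.17), a dendritic cell receptor. Shares that rest on 1 or 2 genes are a description. No fixed cell type marker had a KO-alone region at a gene end as defined here. In the megakaryocyte marker Gp9, a KO-alone region (68.72) covered 252 of the 300 bases of a promoter window. It lay 1533 bp from the nearest end of that gene.

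The list of p53, DNA damage and apoptosis genes had the most gene-end members, 3 of 31 (9.68%, against 1.67% of all genes). Fas and Trp53 (65.77) were among them. Fas had no gene-end peak in WT or KI, while Trp53 had one in both, and its KO-alone region lay 207 bp from a WT peak. With 3 genes and no replicate, the count is a description. The list also had members near Bcl2a1b (77.18), Bcl2 (53.91) and Atr (52.57). The inflammation and NF-kB list had 1 of 25 at a gene end (4.0%), Nfkbiz (51.63), and 6 of 25 nearby (24.0%, against 9.11%). The others were Tlr4 (92.39), Cxcl1 (83.65), Il1r1 (63.87), Myd88 (62.82) and Nfkb1 (59.45, 54.92 and 53.49). Nfkbiz, Tlr4, Myd88 and Nfkb1 had a gene-end peak in both WT and KI, and Cxcl1 and Il1r1 in neither. With 6 genes and no replicate, this count too is a description. The signalling list had 1 of 41 at a gene end (2.44%), Tgfbr2 (50.02), a TGF-beta receptor, and 7 nearby (17.1%).

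Several lists had no member at a gene end: ribosome and translation (0 of 40), autophagy and lysosome (0 of 32), mitochondria (0 of 28), glycolysis, hypoxia and lipids (0 of 32), interferon response (0 of 34), cell cycle (0 of 30), chromatin regulators (0 of 30), FoxO (0 of 18) and AP-1 (0 of 24). At 1.67% of all genes, under 1 gene would be found in a list of this size, so a count of 0 is near the background. The region at the alternative start inside Cbx7, a chromatin regulator, does not count as a gene-end member. Cell cycle and FoxO genes had no member in the body or within 10 kb, against 9.11% of all genes, a share at which lists of 30 and 18 genes would hold few. Autophagy genes with a nearby member were Wipi2 (76.96), Tfe3 (64.24), Lamp2 (60.27), Atg7 (55.34 and 50.41) and Rb1cc1 (53.89). Among gene families, 11 of 389 solute carriers (2.83%), 9 of 400 Zfp zinc finger genes (2.25%) and 4 of 78 RAB GTPases (5.13%) had one at a gene end. Of 1110 olfactory and 355 vomeronasal receptor genes 0 had one. Protocadherins had a member nearby in 22 of 69 genes, at a median span of 90252 bp, and clustered protocadherin genes overlap and count the same regions more than once.

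Across chromosomes, the share of KO regions that were KO-alone ran over the autosomes from 10.7% (9.08 to 12.5) on chromosome 7 to 18.1% (15.2 to 21.5) on chromosome 18, with 16.9% (14.0 to 20.4) on X and 35.7% (16.3 to 61.2) on Y. Within score class 1 the shares were 31.7% on chromosome 7, 48.6% on 18, 42.9% on X and 66.7% (4 of 6 regions) on Y. The lowest share in that class was 27.8%, on chromosome 19. Over all classes the Y value is 5 of 14 regions, of which Ddx3y scored 110.92 and the others between 54.45 and 60.27 on the repeat-rich long arm. The other lists had Y peaks too, 13 in WT and 18 in KI. The 1 Mb window with the most members held 8 of its 19 KO regions on chromosome 10, between 94000001 and 95000000, near Cep83, Fgd6, Nr2c1, Plxnc1 and Tmcc3.

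Promoter windows that overlapped KO-alone regions were less rich in CpG than those that overlapped regions of all 3 lists. Any overlap sufficed, and 188 of the 237 member windows had 150 bases or more inside a member. Composition and motifs were taken over all 300 bases, so they partly describe DNA outside the members. The member windows had a median of 16.0 CpG dinucleotides in 300 bases and a GC content of 58.0%, against 23.0 and 62.7% for windows in all 3 lists and 4.0 and 48.3% for windows without a peak. The windows of WT-alone regions (16.0 and 58.0%) and KI-alone regions (16.0 and 59.0%) had medians close to those of the members.

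To compare at like score, windows in score classes 1 and 2 were used, 221 in KO-alone regions and 2293 in other regions with a KO peak. They belonged to 200 and 2038 genes. Windows of 1 gene or of adjoining genes can overlap. The intervals count each window as separate and are therefore too narrow. This choice of score classes was made after values were seen. The SP/KLF letters GGGCGG were present in 51.6% of the former and 62.6% of the latter (-10.998 points, -17.8 to -4.19), against 35.7% of all windows. The ETS letters CCGGAAGT were in 4.52% and 10.03% (-5.51 points, -7.93 to -1.72; all windows 3.89%), and YY1 (AAGATGGCG) in 0.452% and 3.40% (-2.95 points, -3.85 to -0.778; all windows 1.40%). NRF1 differed by -3.99 points (-6.61 to -0.0071), an interval that only just excluded 0. Windows of WT-alone and KI-alone regions, of any score, held the SP/KLF letters in 50.2% and 54.3%. Their shares were 4.83% and 5.36% for ETS, 0.966% and 2.11% for YY1, and 3.86% and 6.03% for NRF1. Shares below those of the other regions with a KO peak were thus not particular to KO-alone windows. For GATA (9.05% and 6.67%), E-box (12.7% and 10.9%), AP-1 (6.33% and 5.41%), RUNX (4.52% and 3.84%), interferon response (3.62% and 2.66%), NFY (32.6% and 31.8%) and CRE (TGACGTCA, 1.81% and 3.10%) the interval of the difference included 0. That does not show that the shares are alike, since the GATA interval ran from -0.925 to 6.99 points. The 4 motifs whose interval excluded 0 contain CG, as do E-box and CRE, whose intervals included 0. The median number of CpG differed between the same groups of windows (16 and 20). The part of base composition in these differences was not tested.

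**Figure D5:**
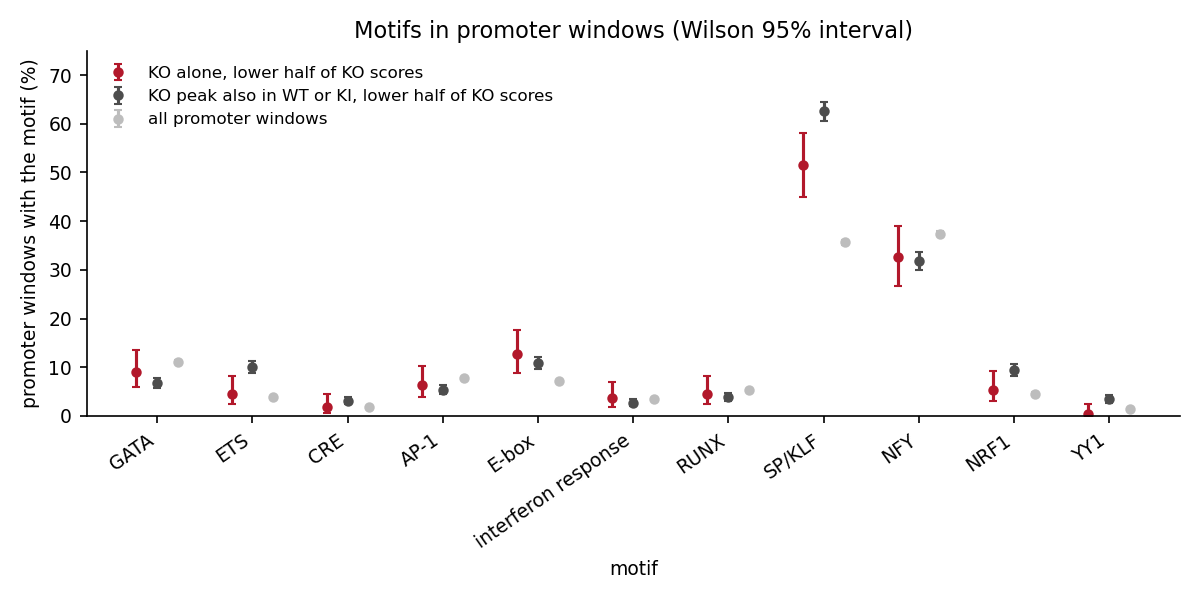
Share of promoter windows holding each of 11 motifs (y axis, percent, with Wilson 95% intervals) for KO-alone regions and other KO regions in score classes 1 and 2, and for all windows. For SP/KLF the KO-alone windows stand at 51.6%, below the other KO regions at 62.6% and above all windows at 35.7%.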

How the data were processed

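Each deposited file is a peak list without a header, 1 per ATAC-seq library, so peaks were called per library. It holds the authors' score per peak, deposited without a stated unit and used within a list only. The peak names are those MACS writes, and the submitters' processing notes name CASAVA and the build mm10. For the aligner, caller version, control, duplicates and transposase shift, nothing was given in the sources used. The files do not show depth, and a deeper library gives more weak peaks at the same threshold, so a region absent from a list may lie just under it. Per the labels' protocols 50000 cells entered each transposition (30 min at 37 °C). The 12 RNA-seq samples were not analysed here.

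Autosomal, X and Y peaks were merged with bedtools 2.31.1 (gap 0). Genes came from RefSeq GRCm38.p6: 21887 protein-coding genes and 2 list genes of another class, and a strand was at hand for 17492 of them. The 19 lists held 564 genes, all matched, 1 by an older name. Intervals are Wilson or, for differences, Newcombe (95%). Merging, placement and motif search were tested on simulated data. The members and lists were chosen with earlier results of these data known. Named were the 15 gene-end, 10 body and 8 intergenic members of highest score, the 3 lowest, the 8 genes with most members, up to 6 gene-end genes per list, and Mtor. Some genes the rule selects are not reported here. Other genes were named after their values were seen. The overlap with other gene classes, peak widths and the own-list score classes were added after the data were examined.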

Additional observations from a re-analysis of the deposited data

How the results depend on the processing

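In score class 1, the lower gene-end share of KO-alone regions held its direction under every alternative for which the difference was computed. Counts and shares moved with where peaks were cut. Against 2619 regions, 62.6% in score class 1, 12.8% at a gene end, 10.7% near a WT or KI peak, 365 genes, 16.9% of X and -16.4 points, lists cut to equal size gave 44.0%, 14.2%, 6.10%, 22.04% and -19.2 points for the shares and the difference. A merge gap of 500 bp gave 10.8% at a gene end and 2.88% near a peak, and one of 1000 bp gave 10.4%, 13.9% of X and -18.9 points. KO peaks scoring 75 or more left 408 regions, 8.58% near a peak, 63 genes, 5.52% of X and 64.1% of promoter windows with SP/KLF letters (53.6% otherwise). At 100 or more, 37 regions, 5.41%, 6 genes and 0% of X were left. WT and KI peaks of 75 or more gave 4782 regions, 55.9% in class 1, 16.2% at a gene end, 6.32% near a peak, 854 genes and 28.5% of X. The share at a gene end was 9.74% with a 500 bp window, 18.7% (567 genes) with 2500 bp and 19.8% (593 genes) with all annotated genes. The cause was not tested beyond what each setting changes by construction. Leaving the named regions aside, 22 recomputed values stayed within their interval or count limit and 30 moved. The limit for counts was loose. With lists of equal size, 3147 regions and 492 genes counted as having stayed. So did 281 genes with a merge gap of 500 bp and 264 with 1000 bp. Of the 36 regions named by rank, 29 were still KO-alone with a gap of 1000 bp and 23 at a KO score of 100. Score class 1 shares and differences with KO scores of 75 or more, and near neighbours with a gap of 1000 bp, have no value by construction. No paired analysis was possible because each genotype had 1 ATAC library and the numbered RNA samples were not analysed here; leaving out a replicate was not possible either. Depth limits every absence.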

Other observations

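Beyond protein-coding genes, KO-alone regions overlapped few small RNA genes. A tRNA gene was overlapped by 1 of 2619 members (0.0382%, 0.0067 to 0.216), n-TVcac9, against 61 of 16214 other regions with a KO peak (0.376%, 0.293 to 0.483). No member overlapped an snRNA or snoRNA gene (36 and 12 of the other regions), with an upper Wilson bound of 0.1465% for each. A miRNA gene was overlapped by 3 members (0.115%, 0.039 to 0.336), at Mir1955, Mir5625 and Mir6353, and by 58 of the other regions (0.358%, 0.277 to 0.462). These gene classes were chosen after the data were examined. The shares here and in the next paragraph were not compared at like score or width. Members are narrower than the other regions with a KO peak, and the part of width in these shares was not tested. No such shares are given for WT-alone or KI-alone regions.

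Annotated long noncoding RNA genes were overlapped by 320 members (12.2%, 11.02 to 13.5) and 14.8% (14.2 to 15.3) of the other regions. Antigen receptor V segments were overlapped by 5 members (0.191%, 0.0816 to 0.446), at Ighv1-75, Ighv4-1, Trav10n, Trav13n-3 and Trbv12-2, and by 16 of the other regions (0.0987%, 0.0608 to 0.160). V segments belong to families of similar copies, and the intervals overlap.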
